A study of Mus musculus with 14 samples.

Results

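Single control cells labelled Duplike and PltLike were compared with single control cells labelled B16F10 and CDP. The members were every cell under those sample titles, which gave 48 cells on the Duplike and PltLike side (24 and 24) and 40 on the B16F10 and CDP side (22 and 18), out of 648 cells in 14 samples. The series profiled mouse cells by Smart-seq2, a plate method that reads most of the length of each transcript in 1 sorted cell at a time, in a study of candidate hybrids of tumor cells and leukocytes in the circulation. The labels give Duplike, PltLike and CDP cells the genotype C57BL/6J, the sex female, an age of 6 to 8 weeks and the treatment naive, and they do not say what the 3 names stand for. The B16F10 cells carry the genotype and treatment B16F10, an adherent mouse melanoma line of C57BL/6J background, with the cell type CTC (circulating tumor cell) and neither age nor sex. All 4 are labelled as controls, each is 1 sample with a batch label of its own, and nothing says whether the cells of a sample came from more than 1 culture or animal. A gene is named below as different only where it went the same way in all 4 pairs of a Duplike or PltLike sample with a B16F10 or CDP sample.

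A dividing cell copies its DNA in S phase with the MCM helicase, the sliding clamp PCNA and enzymes that make nucleotides, and divides in M phase with cyclin B, the kinase CDK1, spindle motors and the anaphase-promoting complex. Genes of the replication machinery are driven mainly by E2F factors, while genes of mitosis are driven by the MuvB complex with B-MYB and FOXM1, which acts through a promoter element called the cell cycle homology region (CHR). Both programmes are held down in cells that have left the cycle, and Mki67, which encodes the proliferation antigen Ki-67, is among the genes then lost. B16F10 is grown as a fast-dividing melanoma line, and pigment genes such as Tyrp1 and Pmel mark its melanocyte origin.

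The 4 samples held 467 Mcounts (megacounts) in Duplike and 471 in PltLike, against 328 in B16F10 and 261 in CDP, with medians of 9242.5 and 8894.5 detected genes per cell, against 8674.5 and 8844. The melanocyte list of 19 genes summed to 34717 and 32019 CPM (counts after scaling each sample to 1000000) in Duplike and PltLike, against 44717 and 44830 CPM in B16F10 and CDP, and the lowest of the 88 cells had 8389 CPM, where the 21 naive white blood cells of the series had a median of 179 and a highest value of 3042. So every cell of the 4 samples carried more melanocyte RNA than any of the blood cells, although 3 of the samples are labelled naive. Leukocyte RNA was split across the sides. Ptprc, the leukocyte antigen CD45, had 52.2 CPM in Duplike and 0.0357 CPM in PltLike, against 0.0899 CPM in B16F10 and 23.9 CPM in CDP. Library numbers in the cell names ran from 1882 to 1929 in Duplike and PltLike and from 615 to 680 in B16F10 and CDP, so the side and the order of the libraries cannot be told apart. Mitochondrial genes took 2.58% and 2.44% of the counts in Duplike and PltLike, against 3.54% and 3.39% in B16F10 and CDP, and the part of this difference in the results was not tested.

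Of 11357 genes tested, 1657 (14.6%) passed an adjusted p of 0.05 in edgeR's quasi-likelihood test of 2 samples against 2, with 1020 (8.98%) higher and 637 (5.61%) lower in Duplike and PltLike. All 1657 went the same way in all 4 sample pairs. At least a 2-fold difference in every pair was found for 1274 genes (11.2%), 691 of them higher (6.08%) and 583 lower (5.13%). The median log2 difference over all genes tested was 0.01. The samples of a side were nearer to each other than to the other side: 13.0% of genes lay 2-fold apart between Duplike and PltLike and 14.1% between B16F10 and CDP, while 26.6% to 31.9% lay 2-fold apart in the 4 pairs across sides. The residual spread of this test is the spread between unlike controls of a side, and an exact permutation of 2 against 2 samples cannot go below a two-sided p of 0.333. Calls depended on each sample: 681 genes passed without Duplike, 173 without PltLike, 422 without B16F10 and 738 without CDP. A fit that shared its spread with sums of all samples of the series called 5 genes, Ccnb2, Cdc20, Hmmr, Tacc3 and Pclaf, all higher, and in it no gene of any list described below passed apart from 3 mitosis genes.

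Mki67 was present in every Duplike and PltLike cell and nearly absent on the other side. Its summed level was 187 CPM in Duplike and 165 CPM in PltLike, against 0 CPM in B16F10 and 6.57 CPM in CDP, so the sides did not overlap. A count of Mki67 was found in 24 of 24 Duplike cells and 24 of 24 PltLike cells, against 0 of 22 B16F10 cells (exact 95% interval 0% to 15.4%; a limit of 3 cells allows 13.6%) and 6 of 18 CDP cells (33.3%, exact 95% interval 13.3% to 59.0%). After each cell was thinned to 1000000 counts the cells with a count were 22 and 22 in Duplike and PltLike, against 0 and 4 in B16F10 and CDP, and in 12 naive white blood cells deep enough to thin it was 1. Of the 1790 counts of Mki67 in CDP, 77.2% came from 1 cell. The log2 difference was 5.74 ± 3.44 (SE) with an edgeR adjusted p of 0.411, so Mki67 did not pass the test. It passed when either sample of the low side was left out, with adjusted p values of 0.0085 without B16F10 and 0.00137 without CDP; B16F10 and CDP also differ from each other in this gene. These intervals and limits cover counting error only.

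**Figure D1:**
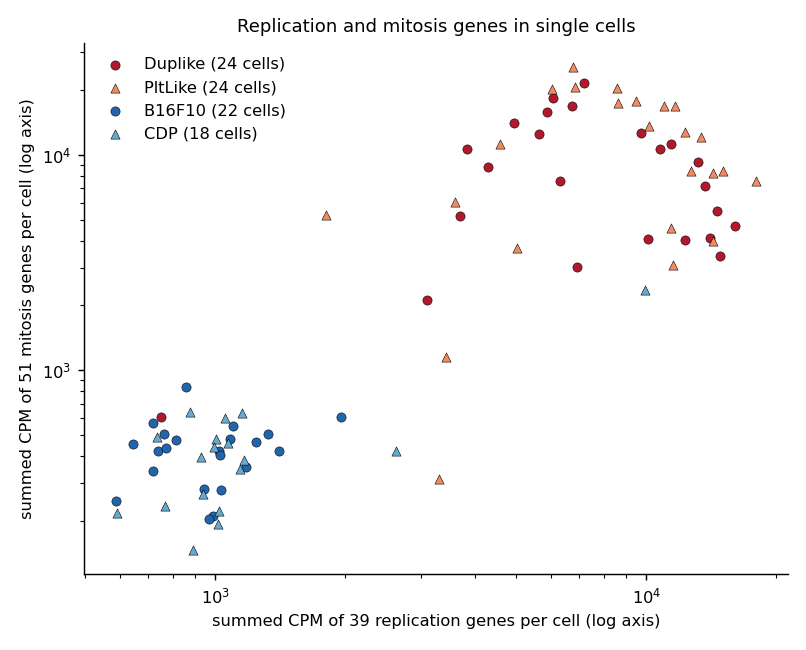
Each point is 1 cell, with the summed CPM of 39 replication genes on the x axis and of 51 mitosis genes on the y axis (both log axes), coloured by sample. Nearly all Duplike and PltLike cells lie to the upper right, and B16F10 and CDP cells lie to the lower left, at medians of 980 and 1010 CPM of replication genes, apart from 1 CDP cell at 9911 and 2359 CPM.

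The split held cell by cell for the mitosis genes. Single cells had a median summed mitosis level of 8156 CPM in Duplike and 9834 CPM in PltLike, against 430 CPM in B16F10 and 410 CPM in CDP. In each of Duplike and PltLike 22 of 24 cells lay above the highest cell of the other side, which was a CDP cell at 2359 CPM. That cell was also the shallowest of the 88, with 1.36 Mcounts, and held 9911 CPM of replication genes. Among the 4 remaining cells, 1 Duplike cell had 609 CPM of mitosis and 750 CPM of replication genes, within the range of B16F10 cells for both, and 1 PltLike cell had 314 CPM of mitosis but 3298 CPM of replication genes. Replication genes overlapped more: 10 of 24 Duplike and 12 of 24 PltLike cells lay above the highest cell of the other side. Cells with high replication and lower mitosis sums, and cells with the reverse, were both found in Duplike and PltLike, as the plot of single cells shows.

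All 39 genes of the replication list were tested, and 33 rose in Duplike and PltLike (8.98% of all genes did), none fell, and the list's median log2 difference was 3.36. The list summed to 8700 and 9762 CPM in Duplike and PltLike, against 958 and 1030 CPM in B16F10 and CDP. The count called was 22 without Duplike, 18 without PltLike, 30 without B16F10 and 34 without CDP, and 0 in the fit that shared its spread with all sums.

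Mcm2, a subunit of the MCM helicase, had 825 CPM in Duplike and 892 CPM in PltLike, against 176 CPM in B16F10 and 159 CPM in CDP, a log2 difference of 2.36 ± 0.12 (edgeR adjusted p = 0.00207). It was found in every one of the 88 cells, so it separated the sides by level and not by presence. Mcm5, another subunit, was far more divided, at 400.0 and 434 CPM in Duplike and PltLike, against 1.53 and 4.03 CPM in B16F10 and CDP (log2 7.23 ± 0.66, edgeR adjusted p = 0.0119). All Duplike and PltLike cells had counts of it, against 22.7% of B16F10 and 16.7% of CDP cells. Mcm3, Mcm4, Mcm6 and Mcm7 rose by log2 2.90 to 3.87. Mcm10, which acts in switching on the loaded helicase, had 134 and 114 CPM, against 0.0210 and 0.327 CPM, and did not pass (edgeR adjusted p = 0.0719).

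The clamp and nucleotide genes followed. Pcna, the clamp that holds the polymerases on DNA, had 503 and 589 CPM in Duplike and PltLike, against 105 and 89.7 CPM in B16F10 and CDP (log2 2.49 ± 0.15, edgeR adjusted p = 0.00231). Tk1, the thymidine kinase of S phase, had 264 and 352 CPM, against 2.13 and 3.82 CPM, and rose by log2 6.69 ± 0.40 (edgeR adjusted p = 0.00231). The ribonucleotide reductase subunit Rrm2 rose more than its partner Rrm1, by log2 4.91 against 3.21, and Tyms of thymidylate synthesis rose by 3.92. Uhrf1, which guides DNA methylation to new strands, had 559 and 577 CPM, against 27.3 and 25.7 CPM. Pclaf, a PCNA-binding protein outside the list, had 292 and 348 CPM, against 0 and 0.683 CPM, and did not pass the test (edgeR adjusted p = 0.168). The members that did not pass were Ung, Gins1, Pola1, Clspn, Cdc6 and Mcm10, and all 6 had log2 differences above 0, from 1.40 to 9.5.

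By its median, the mitosis list was the most divided of the lists tested. All 51 members were tested; 38 rose, 1 fell and 12 did not pass, with a median log2 difference of 6.07, and the sums were 8978 and 11433 CPM in Duplike and PltLike, against 411 and 369 CPM in B16F10 and CDP. The 15 genes with the largest smallest-pair difference, the measure used to choose the named genes, were all genes of the cell cycle. The 15th had a smallest-pair log2 difference of 6.26 and the 16th, not named, of 6.11. The mitosis calls were 30 without Duplike, 20 without PltLike, 50 without B16F10 and 50 without CDP, and 3 in the fit that shared its spread with all sums.

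**Figure D2:**
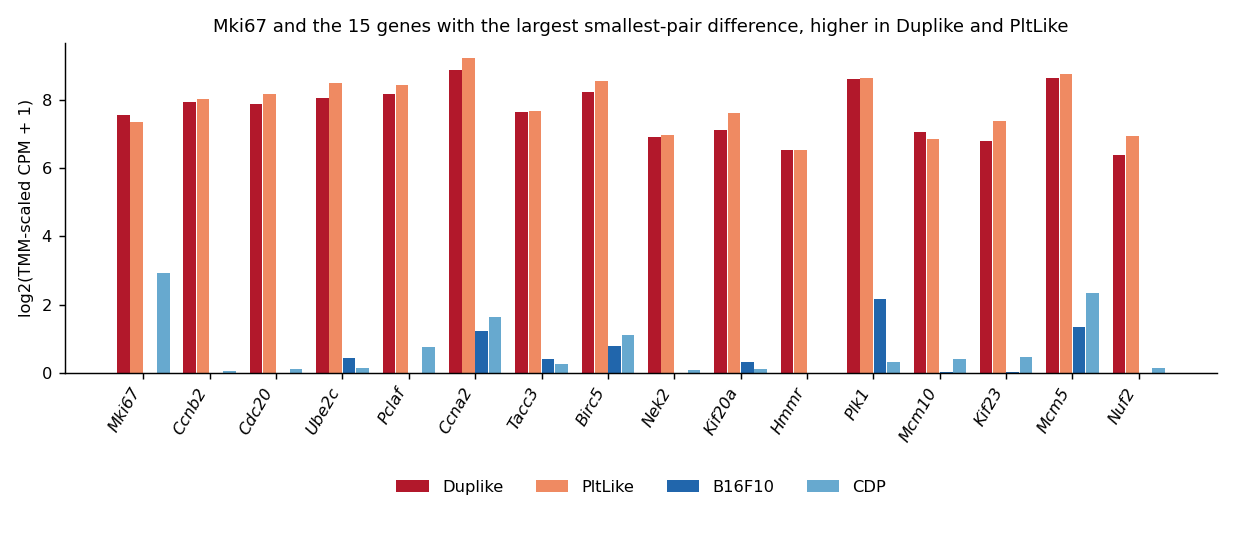
Bars give log2(TMM-scaled CPM + 1) of Mki67 and of the 15 genes with the largest smallest-pair difference on the higher side, in Duplike, PltLike, B16F10 and CDP, 1 bar per sample with no error bar, since each is 1 sum over cells. Each gene stands above 6 in Duplike and PltLike and below 3 in B16F10 and CDP, and Hmmr has no count in the last 2.

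Ccnb2, which encodes cyclin B2, had 247 CPM in Duplike and 259 CPM in PltLike, against 0 CPM in B16F10 and 0.0257 CPM in CDP. Every Duplike and PltLike cell held counts of it, and on the other side only 1 CDP cell did (edgeR adjusted p = 0.00656). Its partner Ccnb1 had 533 and 582 CPM, against 17.1 and 7.87 CPM, a log2 difference of 5.48 ± 0.48 (edgeR adjusted p = 0.00861). Cdk1, the kinase that both cyclins switch on, was less divided, with 391 and 576 CPM, against 37.6 and 28.4 CPM (log2 3.87 ± 0.26, edgeR adjusted p = 0.00285), and had counts in 90.9% of B16F10 and 77.8% of CDP cells. Ccna2, cyclin A2, had 476 and 598 CPM, against 1.32 and 2.10 CPM (log2 8.29 ± 0.34, edgeR adjusted p = 0.00119).

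The genes of mitotic exit showed the same division. Cdc20, an activator of the anaphase-promoting complex, had 238 and 292 CPM in Duplike and PltLike, against 0 and 0.0881 CPM in B16F10 and CDP (edgeR adjusted p = 0.0442). Ube2c, the ubiquitin-conjugating enzyme of that complex, had 267 and 366 CPM, against 0.342 and 0.103 CPM (log2 10.46 ± 0.84, edgeR adjusted p = 0.00977). All of its B16F10 counts came from 1 cell, and 92.9% of its CDP counts came from 1 cell, so the size is uncertain. Birc5, which encodes survivin of the chromosomal passenger complex, had 304 and 376 CPM, against 0.734 and 1.16 CPM (log2 8.49 ± 0.34, edgeR adjusted p = 0.00119). The rule that named these 3 required values without overlap between the sides, so their separation is no added result.

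Spindle genes completed the named set. Hmmr, a spindle-associated protein, had 91.9 and 92.4 CPM in Duplike and PltLike and no count in the 40 cells of B16F10 and CDP. Against a nominal floor of 3 counts over that side, it was 18616-fold higher. Aspm and Espl1, which encode a spindle pole protein and separase, also had no count there, with nominal folds of 11026 and 12571. These folds are no firm bounds, since a count may not be 1 fragment. For example, 1 B16F10 cell alone held 103 counts of Tacc3. Tacc3, a centrosome and spindle protein, had 199 and 204 CPM, against 0.309 and 0.202 CPM (log2 9.62 ± 0.33, edgeR adjusted p = 0.000989). Nek2, a centrosome kinase, had 119 and 125 CPM, against 0 and 0.0587 CPM, the last from 1 CDP cell. Kif20a, a kinesin of cytokinesis, had 138 and 197 CPM, against 0.237 and 0.0698 CPM. All B16F10 counts of Kif20a came from 1 cell, and 84.2% of its CDP counts came from 1 cell. The log2 differences of Nek2 (12.09 ± 1.64) and Kif20a (10.07 ± 0.82) rest on these few cells, so their size is uncertain. Top2a, the topoisomerase that untangles sister chromatids, had 399 and 700 CPM, against 15.9 and 11.2 CPM (log2 5.34 ± 0.39, edgeR adjusted p = 0.00405). Plk1, Kif23 and Nuf2 were as divided but did not pass, with edgeR adjusted p values of 0.142, 0.0971 and 0.0748; Plk1 had 389 and 397 CPM, against 3.48 and 0.235 CPM.

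The exception in the list was Pttg1, which encodes securin, the inhibitor of separase. It fell to 33.7 CPM in Duplike and 29.9 CPM in PltLike, against 58.2 CPM in B16F10 and 70.9 CPM in CDP (log2 -1.02 ± 0.22, edgeR adjusted p = 0.0393). It was chosen for mention after its values were seen.

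The promoters of 4 named mitosis genes are shown because the group moved together and the CHR is known from such promoters. They are RefSeq sequences of GRCm38.p6, from 250 bases before to 50 after the gene's start, 5′ to 3′ on the gene's strand, with the CHR letters TTTGAA and TTTAAA and the letters CCAAT, which the factor NF-Y binds, in capitals on either strand. Ccnb2 lies on the minus strand at chr9:70421505-70421804, Cdc20 on the minus strand at chr4:118437294-118437593, Ube2c on the plus strand at chr2:164769679-164769978 and Birc5 on the plus strand at chr11:117848987-117849286.
Ccnb2: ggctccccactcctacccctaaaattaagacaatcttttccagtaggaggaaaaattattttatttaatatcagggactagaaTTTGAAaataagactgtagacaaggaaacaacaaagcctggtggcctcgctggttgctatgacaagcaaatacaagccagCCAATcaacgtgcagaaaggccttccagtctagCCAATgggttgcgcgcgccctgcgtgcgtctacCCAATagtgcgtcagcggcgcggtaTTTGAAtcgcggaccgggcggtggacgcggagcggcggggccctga
Cdc20: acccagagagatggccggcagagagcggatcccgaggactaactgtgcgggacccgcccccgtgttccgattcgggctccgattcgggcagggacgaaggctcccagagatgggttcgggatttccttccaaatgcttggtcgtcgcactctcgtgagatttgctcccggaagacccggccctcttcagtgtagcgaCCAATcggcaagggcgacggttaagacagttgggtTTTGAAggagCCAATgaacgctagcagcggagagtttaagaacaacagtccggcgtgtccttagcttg
Ube2c: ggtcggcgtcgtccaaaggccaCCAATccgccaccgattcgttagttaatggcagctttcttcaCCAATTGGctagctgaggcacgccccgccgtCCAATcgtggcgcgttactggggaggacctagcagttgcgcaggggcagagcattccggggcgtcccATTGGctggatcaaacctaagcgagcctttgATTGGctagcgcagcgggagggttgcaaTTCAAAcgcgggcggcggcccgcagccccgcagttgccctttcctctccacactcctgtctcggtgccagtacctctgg
Birc5: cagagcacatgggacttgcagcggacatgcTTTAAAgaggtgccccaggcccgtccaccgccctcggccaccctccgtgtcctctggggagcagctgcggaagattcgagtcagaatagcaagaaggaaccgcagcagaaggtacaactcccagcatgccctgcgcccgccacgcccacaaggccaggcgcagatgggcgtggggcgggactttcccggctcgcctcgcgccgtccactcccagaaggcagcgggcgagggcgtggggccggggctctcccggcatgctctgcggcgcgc
The Ccnb2, Cdc20 and Ube2c windows hold TTTGAA near the gene's start, beginning at positions 4, -18 and -29 from it, and CCAAT letters upstream. The Birc5 window holds TTTAAA at -220 as its only match. Either form of the CHR letters was found in 33 of the 42 mitosis list promoters matched (78.6%), in 8 of 33 replication list promoters (24.2%) and in 19.0% of the 9015 promoters of tested genes. CCAAT was found in 73.8%, 63.6% and 39.2% of the same sets. An E2F element, spelled TTTCCCGC or alternatively TTTGGCGC, was found in 7.14% of mitosis, 30.3% of replication and 3.22% of tested gene promoters. These are matches of letters in a window and show no binding.

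Genes of the G1 phase differed less. Of 18 G1 cyclin and E2F genes tested, 5 rose (8.98% of all genes did) and none fell, with a median log2 difference of 1.09. Skp2, which marks CDK inhibitors for destruction, had 85.0 and 88.7 CPM in Duplike and PltLike, against 22.9 and 20.6 CPM in B16F10 and CDP (log2 2.0 ± 0.2, edgeR adjusted p = 0.00533). Ccne1, cyclin E1, had 101 and 97.6 CPM, against 33.5 and 36.1 CPM, and rose by log2 1.51 ± 0.18 (edgeR adjusted p = 0.00795). Ccnd1, cyclin D1, had 113 and 138 CPM, against 55.2 and 47.0 CPM, and rose by 1.30 ± 0.19 (edgeR adjusted p = 0.0147). Ccnd3 and Myc were the other 2 that passed. Ccnd2 leaned the other way at 648 and 863 CPM, against 1308 and 1064 CPM, and did not pass (edgeR adjusted p = 0.0738). The count was 2 without Duplike, 0 without PltLike, 3 without B16F10 and 7 without CDP.

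Few inhibitors of the cycle passed. Of 16 CDK inhibitor and quiescence genes tested, 2 fell, against 5.61% of all genes, none rose, and the median log2 difference was -0.32. The count that fell was 1 without Duplike and 0 without any 1 of the other samples. The 2 were the forkhead factors Foxo1, at 6.74 and 3.31 CPM in Duplike and PltLike, against 30.8 and 24.5 CPM in B16F10 and CDP, and Foxo3, at 18.5 and 18.6 CPM, against 46.1 and 40.1 CPM. Cdkn1a, the CDK inhibitor p21, had 186 and 174 CPM, against 313 and 210 CPM, and did not pass (log2 -0.54 ± 0.21, edgeR adjusted p = 0.155). Cdkn1b, the inhibitor p27, had 41.5 and 41.1 CPM, between 56.3 CPM in B16F10 and 32.0 CPM in CDP. Cdkn2a, the locus of p16 and p19, had 0.204 CPM in Duplike and no count in the other 3 samples. None of 15 p53 target genes passed in either direction.

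**Figure D3:**
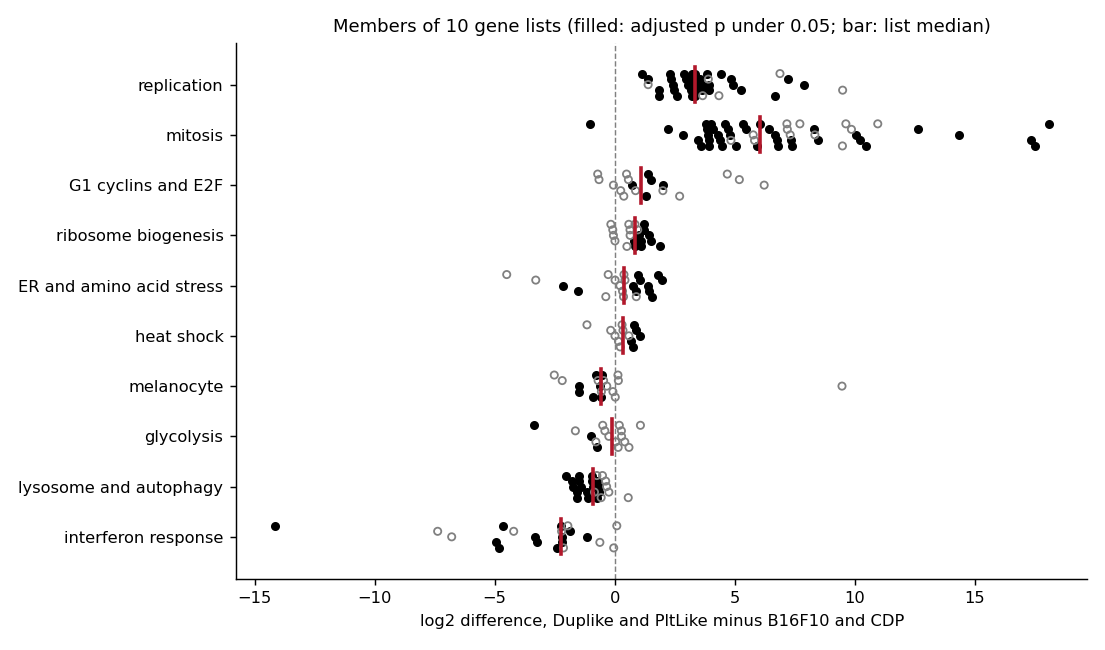
Each point is a gene of 1 of 10 lists at its fitted log2 difference, Duplike and PltLike minus B16F10 and CDP, filled where the edgeR adjusted p was under 0.05; red bars are list medians and the dashed line is the median of all genes tested. The replication and mitosis lists stand to the right with medians of 3.36 and 6.07, and the lysosome and interferon lists to the left with -0.90 and -2.21. Points beyond about 13 in size belong to genes with 0 or nearly 0 counts on a side and their position is no measure of size. Large differences below that size can also rest on few cells, as for Cdc20 at 12.63, with counts in 0 B16F10 and 2 CDP cells.

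In ribosome biogenesis 10 of 20 genes rose, against 8.98% of all genes, none fell, and the median log2 difference was 0.84. Ncl, which encodes nucleolin, had 919 and 1113 CPM in Duplike and PltLike, against 377 and 338 CPM in B16F10 and CDP (log2 1.51 ± 0.14, edgeR adjusted p = 0.00474). Dkc1 and Nolc1, of small nucleolar RNA particles, rose by log2 1.21 and 1.42. The count was 4 without Duplike, 1 without PltLike, 1 without B16F10 and 7 without CDP. Of 35 ribosomal protein genes 2 rose and 1 fell, below the 8.98% and 5.61% of all genes, with a median log2 difference of 0.0025. In the respiratory chain 4 of 29 rose, near the 8.98% of all genes, and none fell; Ndufb8 rose by the most among the named ones (log2 1.01 ± 0.15), and the count was 2 without Duplike and 0 without any 1 of the other samples. Near-identical copies make single ribosomal protein counts uncertain.

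Of 22 genes of endoplasmic reticulum and amino acid stress, 9 rose and 2 fell, against 8.98% and 5.61% of all genes. The count that rose was 7 without Duplike, 4 without PltLike, 2 without B16F10 and 4 without CDP. Psat1, of serine synthesis, had 395 and 537 CPM in Duplike and PltLike, against 112 and 123 CPM in B16F10 and CDP (log2 1.99 ± 0.18, edgeR adjusted p = 0.00442). Shmt2, the mitochondrial enzyme that takes a carbon unit from serine, had 383 and 549 CPM, against 138 and 125 CPM. The chaperone Hspa5 rose by log2 1.40. The pair that fell was Ddit3, which encodes the stress factor CHOP, at 46.8 and 50.6 CPM, against 178 and 251 CPM (log2 -2.14 ± 0.21, edgeR adjusted p = 0.00532), and Trib3, its target, by -1.54. In heat shock 5 of 13 rose, against 8.98% of all genes, Dnajb1 and Hspd1 by log2 1.05 and 0.91, and 0 or 1 passed when any sample was left out. In cholesterol synthesis 3 of 23 rose, Acat2, Lss and Nsdhl, near the 8.98% of all genes, and 0 passed without Duplike or PltLike and 1 without B16F10 or CDP.

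On the lower side the widest group was the lysosome. Of 25 lysosome and autophagy genes tested, 17 fell in Duplike and PltLike, against 5.61% of all genes, none rose, and the median log2 difference was -0.90. Sums were 9176 and 9327 CPM in Duplike and PltLike, against 19875 and 19406 CPM in B16F10 and CDP. Ctsl, the protease cathepsin L, had 272 and 237 CPM, against 969 and 1106 CPM (log2 -2.03 ± 0.14, edgeR adjusted p = 0.00285). Neu1, the lysosomal sialidase, had 84.0 and 82.3 CPM, against 284 and 278 CPM (log2 -1.76 ± 0.13, edgeR adjusted p = 0.00285). Mcoln1, the lysosomal calcium channel, had 36.1 and 32.8 CPM, against 111 and 121 CPM, and Gabarapl1, of autophagosome formation, 103 and 114 CPM, against 315 and 324 CPM. All 4 were found in at least 87.5% of the cells of each sample. Their separate ranges on the 2 sides follow from the rule that named them. The count was 10 without Duplike, 6 without PltLike, 8 without B16F10 and 11 without CDP. Tfeb and Tfe3, factors that drive lysosome genes, did not pass.

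Pigment genes fell in part. Of 18 melanocyte genes tested, 7 fell, against 5.61% of all genes, and none rose, with a median log2 difference of -0.55. Gpnmb, a melanosomal and lysosomal glycoprotein, had 4371 and 3486 CPM in Duplike and PltLike, against 11198 and 11046 CPM in B16F10 and CDP (log2 -1.50 ± 0.14, edgeR adjusted p = 0.00441). Tyr, tyrosinase, had 430.1 and 390.0 CPM, against 1137 and 1125 CPM (log2 -1.46 ± 0.11, edgeR adjusted p = 0.00322). Dct, Slc45a2, Slc24a5, Mc1r and Sox10 fell by 0.54 to 0.91 on the log2 scale. Tyrp1, at 10545 and 10505 CPM, against 10265 and 10383 CPM, and Pmel, at 8110 and 7724 CPM, against 7142 and 7234 CPM, did not pass. The count was 2 when PltLike, B16F10 or CDP was left out.

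**Figure D4:**
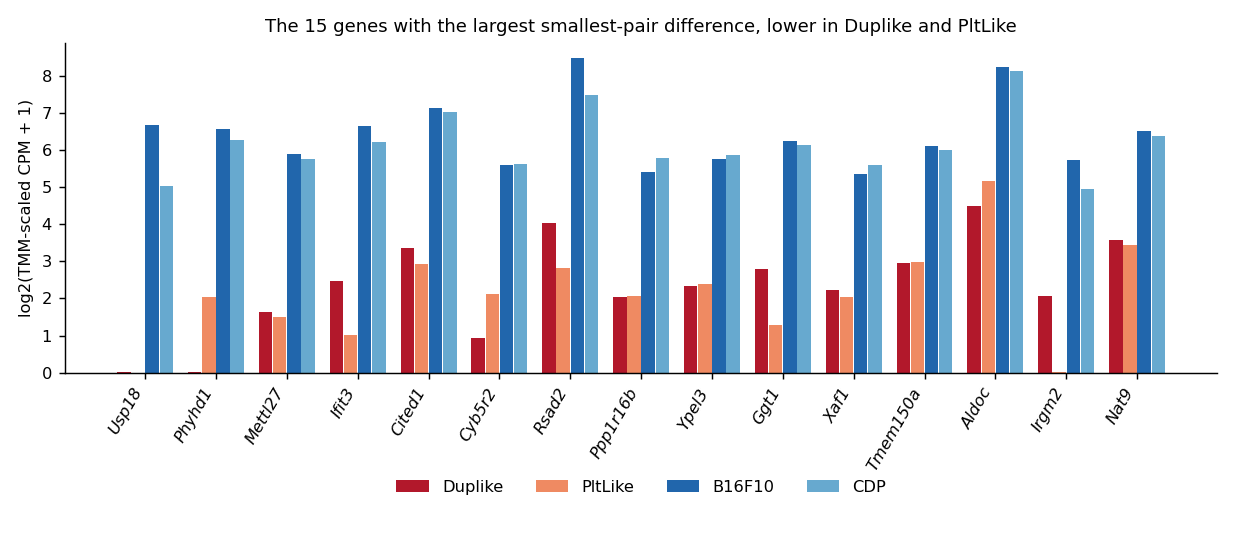
Bars give log2(TMM-scaled CPM + 1) of the 15 genes with the largest smallest-pair difference on the lower side, in Duplike, PltLike, B16F10 and CDP, 1 bar per sample with no error bar. The Duplike and PltLike bars stand lower than the B16F10 and CDP bars for all 15, with smallest-pair differences from -5.02 for Usp18 to -2.80 for Nat9.

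The 15 genes most divided on this side differed in how much of their RNA came from 1 cell. Aldoc, aldolase C of glycolysis, had 21.6 and 35.0 CPM in Duplike and PltLike, against 300.3 and 275 CPM in B16F10 and CDP, with counts in every B16F10 and CDP cell and at most 13.3% from 1 of them (log2 -3.35 ± 0.27, edgeR adjusted p = 0.00353). Cited1, a transcription cofactor of the melanocyte lineage, had 9.34 and 6.56 CPM, against 138 and 130 CPM (log2 -4.07 ± 0.26, edgeR adjusted p = 0.00231), and 1 cell gave 45.4% of its counts in B16F10 and 31.0% in CDP. Ypel3 had 4.06 and 4.27 CPM, against 52.5 and 57.7 CPM, and Tmem150a 6.71 and 6.88 CPM, against 67.7 and 62.3 CPM, both with counts in every B16F10 and CDP cell. Mettl27, a methyltransferase-like gene, had 2.12 and 1.84 CPM, against 58.1 and 52.9 CPM (log2 -4.81 ± 0.31, edgeR adjusted p = 0.00256). Cyb5r2, Ppp1r16b, Ggt1 and Nat9 fell by 3.06 to 4.5 on the log2 scale. Phyhd1, at 0.00868 and 3.13 CPM, against 94.1 and 75.6 CPM, was as divided and did not pass (edgeR adjusted p = 0.368).

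The other genes of that set belong to the interferon response. Of 21 interferon response genes tested, 12 fell, against 5.61% of all genes, none rose, and the median log2 difference was -2.21. The summed list had a cell median of 314 CPM in Duplike and 259 CPM in PltLike, with highest cells of 732 and 690 CPM, against medians of 477 and 404 CPM in B16F10 and CDP, with highest cells of 12407 and 9797 CPM. Usp18, which removes ISG15 from proteins, had 0.00651 and 0 CPM, against 101 and 31.6 CPM, and 1 cell gave 79.2% of its counts in B16F10 and 70.1% in CDP. Rsad2, which encodes viperin, had 15.3 and 6.07 CPM, against 351 and 178 CPM, with 80.5% and 57.5% from 1 cell. Xaf1, an interferon-induced gene, was more even, at 3.71 and 3.09 CPM, against 39.4 and 47.3 CPM, with no cell above 31.2% in B16F10 or CDP. Without the deepest cell of each sample 5 genes of the list fell while the median was -2.14. Ifit3 at -4.03 and Rsad2 at -3.62 were not among these 5 (edgeR adjusted p = 0.124 and 0.0541). On the mean over cells of log2(CPM + 1), an alternative chosen after seeing the data, 7 genes of the list fell with a median of -1.11. Without PltLike 1 fell, without B16F10 4 did and without CDP 5 did. Ifit3, of the same family as Ifit1, had 4.58 and 1.02 CPM, against 98.4 and 73.6 CPM, and lost its call in both of these alternatives, with adjusted p values of 0.124 in edgeR and 0.0748 in limma; it has a near-identical copy, so its count is uncertain. Irgm2, an interferon-induced GTPase outside the list, had 3.22 and 0.0067 CPM, against 51.5 and 30.1 CPM, and did not pass (edgeR adjusted p = 0.426).

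Oxidant, hypoxia and glycolysis genes moved in small numbers. Hmox1, heme oxygenase, had 105 and 96.1 CPM in Duplike and PltLike, against 487 and 398 CPM in B16F10 and CDP (log2 -2.14 ± 0.15, edgeR adjusted p = 0.00285). Srxn1, Sod1 and Gpx4 fell with it, while Mt1, a metallothionein, had 637 and 648 CPM, against 251 and 257 CPM, and rose with the transferrin receptor Tfrc, 2 up and 4 down of 18, against 8.98% and 5.61% of all genes; without Duplike, PltLike or B16F10 1 rose and 1 fell. Of 16 glycolysis genes 3 fell (Aldoc, Aldoa and Gpi1), and of 18 hypoxia genes 2 fell, Ero1a and P4ha1, against 5.61% of all genes. The glycolysis count was 1 without B16F10 or CDP, and the hypoxia count was 1 without Duplike, PltLike or CDP. B2m was the 1 MHC class I gene of 11 that fell, against 5.61% of all genes, at 583 and 421 CPM, against 1080 and 1250 CPM. The median log2 difference of the class I list was -1.21. It ranged from -0.54 without PltLike to -2.87 without Duplike. None of 9 MHC class II or 15 immediate early genes passed.

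Of 23 mesenchymal and matrix genes 3 rose and 1 fell, near the 8.98% and 5.61% of all genes. Ccn1, a matrix protein induced by growth factors and YAP, had 124 and 118 CPM in Duplike and PltLike, against 9.0 and 6.3 CPM in B16F10 and CDP (log2 3.98 ± 0.26, edgeR adjusted p = 0.00257). Vim, vimentin, had 1379 and 1469 CPM, against 558 and 590 CPM (log2 1.31 ± 0.11, edgeR adjusted p = 0.00354). Fbln1, fibulin 1, a member of the fibroblast list, had 208 and 169 CPM, against 3.01 and 9.48 CPM, in all Duplike and PltLike cells (log2 4.91 ± 0.70, edgeR adjusted p = 0.0254). It was the only 1 of 5 fibroblast genes tested that passed. With Fbln1 included, the list summed to 237 and 229 CPM, against 27.8 and 39.7 CPM. Fbln1 itself gave most of the sum in Duplike and PltLike. Cdh2, N-cadherin, rose by log2 1.22, and Id2, a target of TGF-beta family signals, by 1.63. Id2 was the 1 of 9 genes tested from its list of TGF-beta and YAP targets that passed. That list held Cyr61, the older symbol of Ccn1, and Ctgf, which matched no deposited gene name. Its count therefore leaves Ccn1 out.

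Leukocyte genes did not follow the 2 sides. Lyz2, lysozyme of myeloid cells, had 1204 CPM in Duplike and 1.33 CPM in PltLike, against 4.43 CPM in B16F10 and 1960 CPM in CDP. Cd74, the MHC class II invariant chain, had 708 and 0.594 CPM, against 3.73 and 163 CPM. The macrophage list summed to 1655 and 4.94 CPM, against 36.1 and 2457 CPM, so that Duplike stood with CDP and PltLike with B16F10. The pan-leukocyte list summed to 1331 and 933.0 CPM, against 933 and 1378 CPM, of which Arhgdib alone, found in all 88 cells, gave 812 and 920.4 CPM, against 902 and 782 CPM. None of 15 pan-leukocyte, 13 macrophage, 6 lymphocyte, 6 neutrophil and 3 platelet genes tested passed, and the erythroid and lung epithelium lists had no gene above the filter. Of 3 endothelial genes Egfl7 fell (log2 -1.28). The part of leukocyte RNA in the differences between the sides was not tested. No doublet caller was run.

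**Figure D5:**
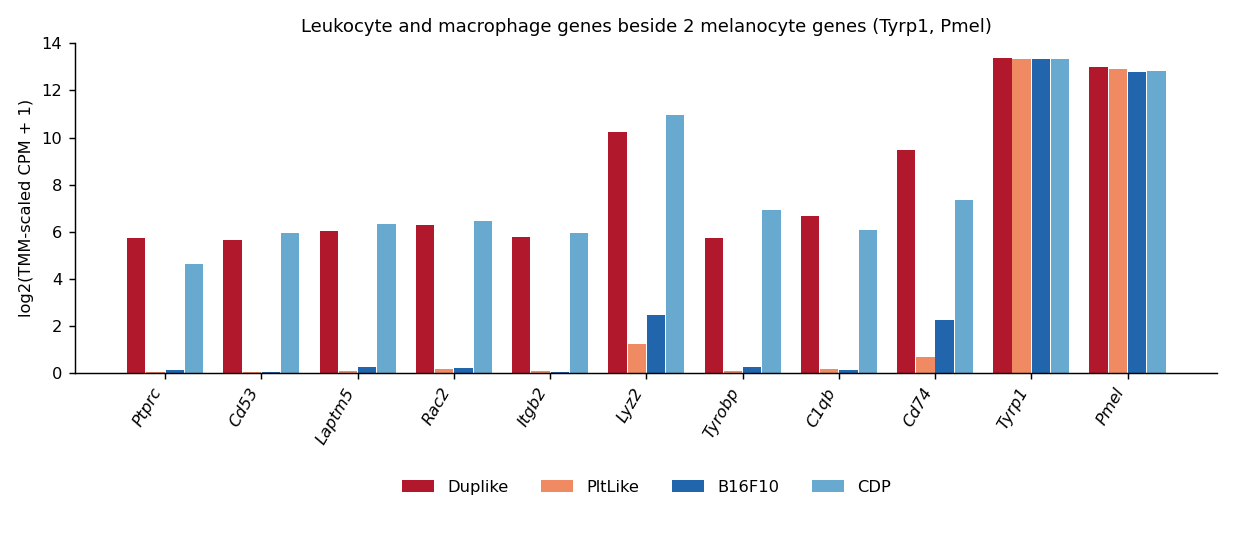
Bars give log2(TMM-scaled CPM + 1) of leukocyte and macrophage genes and of the melanocyte genes Tyrp1 and Pmel in Duplike, PltLike, B16F10 and CDP, 1 bar per sample with no error bar. The leukocyte bars are tall in Duplike and CDP and low in PltLike and B16F10, while Tyrp1 and Pmel are alike in all 4.

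Cells classed as CTC in 5 tumor-bearing samples enter none of these comparisons apart from the spread of the shared fit. They had summed mitosis levels of 3656 to 8674 CPM, replication levels of 3423 to 6775 CPM and Mki67 levels of 82.0 to 227 CPM. The cells were taken by class alone, whatever their tissue label. Their values are plain CPM over all genes, while the sample sums of the controls are TMM-scaled. The CTC sums come from 3 to 15 cells a sample.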

How the data were processed

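The authors deposited raw counts for 21138 genes in each of 648 cells, without normalization. Per the submitters' processing notes, Trim Galore, HISAT2, SAMtools and featureCounts were used with mm10; their versions, annotation and strand setting are not given in the sources, so reads of overlapping or antisense genes may not be told apart. BWA and Picard are also listed. Values of 2 outnumbered values of 1 by 3.59 times, so a count may not be 1 fragment, and copies made by PCR were not marked; intervals cover counting error only. Coordinates come from GENCODE vM21 (GRCm38), which held 18884 of the symbols, and promoters from RefSeq (GRCm38.p6).

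Counts were summed per sample and scaled by TMM. Genes passing filterByExpr with a mean of at least 1 CPM were tested with edgeR 4.0.16 (robust quasi-likelihood, R 4.3.3, limma 3.58.1) with Benjamini-Hochberg adjustment at 0.05 over 11357 genes. A pair difference is that of log2(TMM-scaled CPM + 1). No block was used, since each control is 1 sample. The p-values measure the spread between unlike controls of a side and not between replicates of a control. Named genes were the 15 protein-coding genes in each direction with the largest smallest-pair difference among those at least 2-fold apart in all 4 pairs, averaging 20 CPM or more, with counts in at least 50% of the cells of both samples of the higher side, with Mki67, 9 key cycle genes and up to 4 members of each of 31 lists that went the same way in all 4 pairs. Values for other list members, named beside their list's counts, were chosen after their values were seen. The members and lists were chosen with earlier results of these data known. On simulated data for this comparison (11357 genes) the test recovered 8% of changes of log2 1 and 64% of log2 3, with 8.86% of calls on unchanged genes. Only a small part of the genes was changed there, in a single draw, so these shares need not hold for the real comparison. Shares of cells have exact (Clopper-Pearson) 95% intervals. A floor of 3 counts over a side gave nominal folds, which are no firm bounds because a count may not be 1 fragment. Alternatives included DESeq2 1.42.0, limma, other scalings, filters and cells, and leaving out each sample. Scripts ran in Python 3.11.15 with NumPy 2.4.6, pandas 2.3.3, SciPy 1.17.1 and matplotlib 3.10.9. The matched DNA data were not analysed here.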

Additional observations from a re-analysis of the deposited data

How the results depend on the processing

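Each side held 2 unlike samples, 1 sum each, so calls rest on their likeness. Of the 1657 genes called (1020 higher, 637 lower), the total ranged from 173 to 738 when 1 sample was left out, with 116 to 530 higher and 57 to 278 lower; the lone sample is then assumed to vary like the other side. DESeq2's Wald test called 4319 (2229 higher, 2090 lower), and all 1657 were among them. The edgeR fit that shared its spread with sums of all samples called 5, with 5 higher and 0 lower, and 241 at an unadjusted p under 0.05. Its spread came from repeated sums of the tumor-bearing samples and not from the controls. With a mean of at least 20 CPM 1024 were lower. In limma 1057 were lower on log2 of the mean over cells, and 1025 on the mean of log2 values over cells, the setting added after seeing the data. Called genes were 61.6% higher in the fit reported, against 51.6% in DESeq2, 51.3% and 50.8% in the 2 limma fits and 82.0% without B16F10. Genes 2-fold apart in all pairs (1274) were 777 (460 higher, 317 lower) at 20 CPM. Leaving out 1 sample gave 1882 to 2186 in all, 962 to 1076 higher and 898 to 1224 lower, with fewer pairs to satisfy. Of 113 named genes tested, 77 passed; 45 of these no longer passed without PltLike, the most of any sample left out. The direction of Phlda3 reversed to 0.044 without the deepest cell of each sample, and Cdkn1b ranged from -0.45 to 0.37 when 1 sample was left out, the last without B16F10; neither passed, and the causes were not tested. No other named gene reversed in any alternative that gave values for single genes. No paired analysis was possible because each control is 1 sample numbered in accession order, so that the 2 sides share fewer than 2 replicate numbers and nothing in the labels pairs their samples. The depth of 261 to 471 Mcounts a sample limits levels little; the number of samples limits every call.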
